A study of Mus musculus with 6 samples.

Results

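DNA repair and damage signalling genes were followed in mast cells of mouse lymph nodes. The set holds 46 genes chosen by symbol, for their place in a repair pathway, out of 17890 genes in the count table, and all 46 were found there. Mast cells came from nodes holding tumour metastases (mLN, 3 libraries) and from uninvolved nodes (uLN, 3 libraries), and mRNA libraries were made from total RNA. The labels used here give no strain, genotype, age, tumour type or treatment, nor the way the mast cells were isolated. Nothing in the labels says that the replicates of a group came from separate animals, so every p-value reflects library-to-library spread alone, part or all of which may be technical.

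Cells sense broken or stalled DNA through the kinases ATM and ATR, which act through the checkpoint kinases CHEK2 and CHEK1 and through the transcription factor p53. MDM2 and MDM4 hold p53 in check, and MDM2 is itself a p53 target gene. Breaks are mended by end joining at any stage of the cell cycle or by homologous recombination where a sister chromatid is present. Crosslinks, bulky adducts, damaged bases and replication errors go to the Fanconi anaemia, nucleotide excision, base excision and mismatch repair pathways. Mast cells are long-lived tissue cells that seldom divide.

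Library totals ran from 17643879 to 17799365 counts, so read numbers can be compared between libraries almost directly. Levels are given as CPM, the read count scaled to a common library size, with TMM factors that lay between 0.983 and 1.03. The summed level of 12 mast cell markers was 40180 to 42910 CPM in mLN and 42020 to 43860 CPM in uLN. Single markers did change. Of the 12, 3 rose, 6 fell and 3 were not called, with log2 changes from -1.305 to 2.01. Markers of other cells stayed low by comparison. The 8 T cell markers in the table summed to 3.67 to 5.51 CPM in mLN and 5.69 to 6.47 in uLN, the 7 B cell markers to 5.57 to 7.17 and 8.33 to 9.28, and the 7 neutrophil markers to 5.85 to 7.5 and 6.13 to 7.44. The 10 macrophage and dendritic cell markers summed to 170.3 to 187 CPM in mLN and 74.7 to 95.5 in uLN, mostly Cd68 and Adgre1. Of the 8 of them tested, 3 rose (Cd68, Adgre1 and Itgax) and 5 fell (Csf1r, Cd163, Mrc1, C1qb and C1qc), with a median log2 change of -0.82. The 10 epithelial markers summed to 161 CPM in mLN replicate 1, to 16.5 and 35.3 CPM in mLN replicates 2 and 3, and to 8.15 to 17.5 CPM in uLN. The 9 stromal markers, mostly Pecam1, summed to 637 to 704 CPM in mLN and 609.7 to 634 in uLN. Of the 5 of them tested, 3 rose (Col1a1, Col1a2 and Dcn), 1 fell (Pdgfrb) and Pecam1 was not called, with a median log2 change of 1.99. Dcn had 591, 20 and 61 reads in mLN and 27, 23 and 9 in uLN, so mLN replicate 1 was far above the rest. Of the markers found in the table, 0 were at 0 reads in all 6 libraries. The part of these cells in the results below was not tested, but the counts of members and of p53 target genes are also given without mLN replicate 1. In bulk RNA, fewer cells of a type and less RNA per cell cannot be told apart.

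Repair genes moved in both directions between the groups, at a share close to that of all genes. All 46 members passed the expression filter. By edgeR's quasi-likelihood test, 14 rose and 15 fell in mLN at a Benjamini-Hochberg adjusted p under 0.05 over all 12706 tested genes, and 17 were not called. That is 63.0% of the members, where 67.4% of all tested genes were called (33.2% higher and 34.2% lower). A change of at least 1.5-fold was found for 6 that rose and 6 that fell, against a background of 17.1% of tested genes higher and 15.3% lower by that much. The mLN and uLN libraries did not overlap for 33 members, or 71.7%, where 72.9% of all tested genes did not overlap. The median log2 fold change was -0.08 over the members and -0.01 over all tested genes. Without mLN replicate 1, 13 members rose and 14 fell, of which 6 and 7 changed by at least 1.5-fold. Of all 12826 genes tested then, 4012 rose and 4158 fell.

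**Figure D1:**
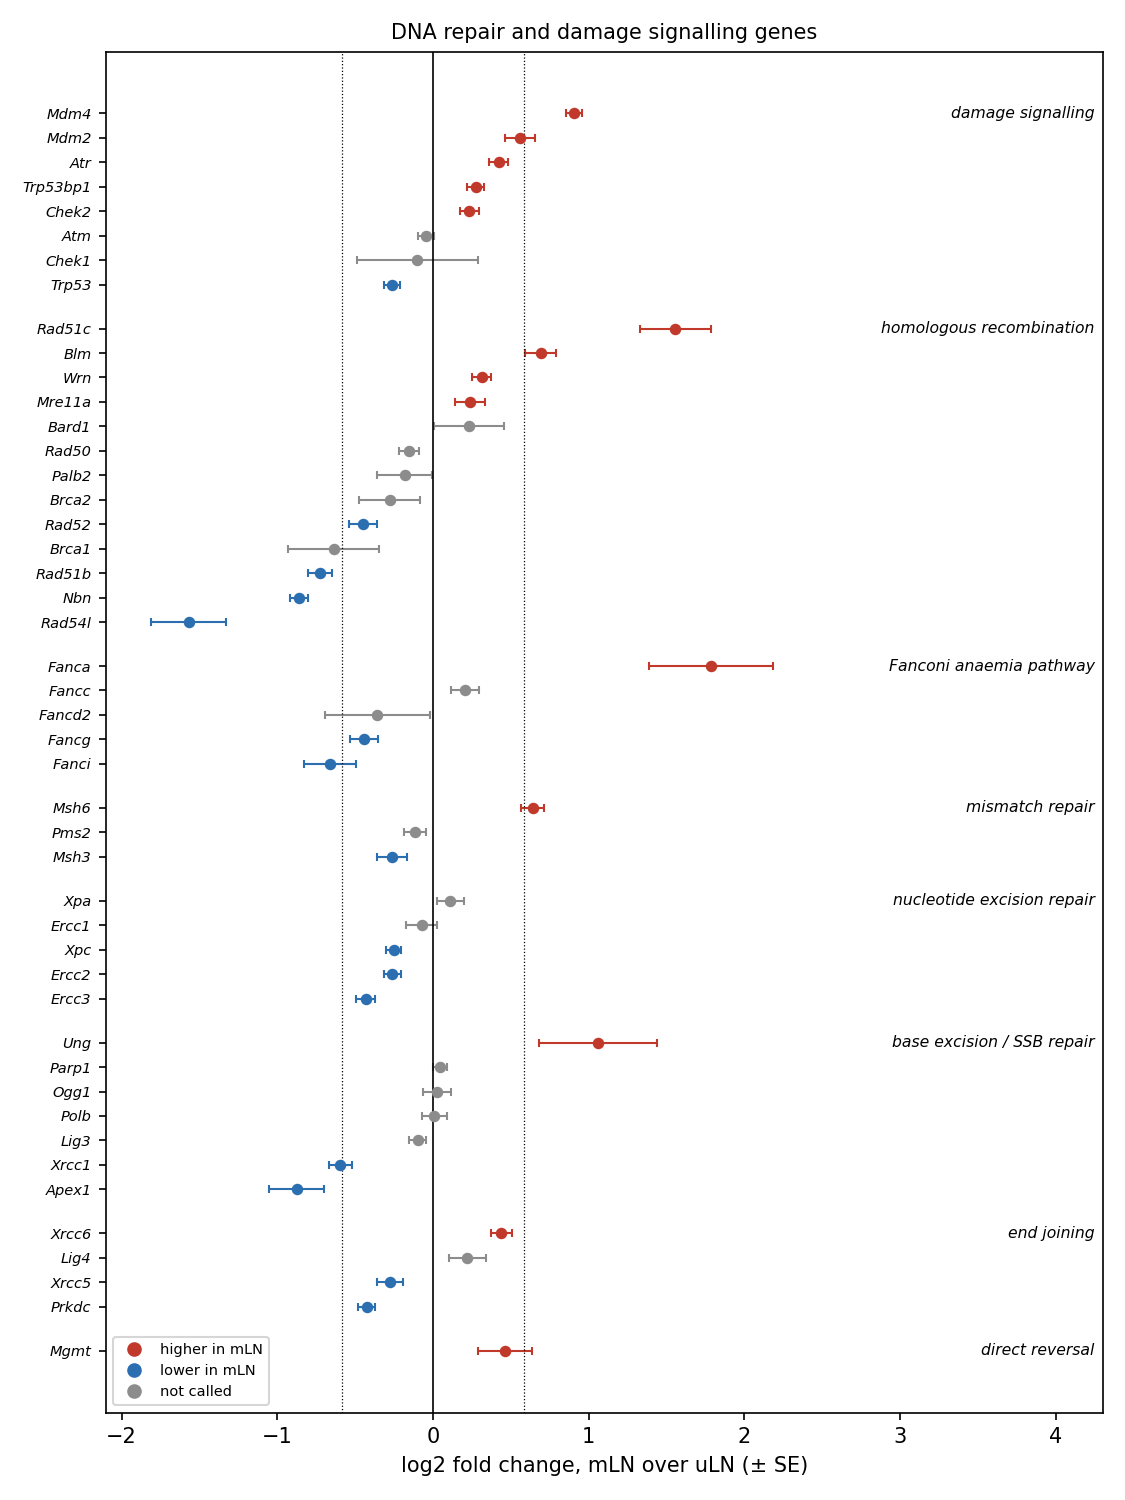
Log2 fold change (mLN over uLN, x axis) with its standard error for the 46 members, grouped by pathway, with dotted lines at 1.5-fold and colours for the call at an adjusted p under 0.05. Most values lie within the dotted lines, and 6 members stand beyond them on each side with a call.

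Promoter sequences are shown for members at the ends of that range and for Mdm2, which lies outside the rule and was added after its values and its p53 motif match were seen. The naming rule took the members with the largest called rise (Mdm4 and Blm) and fall (Nbn and Rad51b) at a mean of at least 5 CPM, of which Mdm4, Blm and Rad51b are shown. The stretches are the 250 bases before the outermost start listed in the RefSeq promoter table (GRCm38.p6), which for Blm lies inside the annotated gene span. They are given 5′ to 3′ on the gene's strand and were taken for Mdm4 at chr1:133030588-133030837, minus strand, for Blm at chr7:80534999-80535248, minus strand, for Rad51b at chr12:79297032-79297281, plus strand, and for Mdm2 at chr10:117710759-117711008, minus strand. Capitals mark matches to any of 8 motifs searched on both strands.
Mdm4: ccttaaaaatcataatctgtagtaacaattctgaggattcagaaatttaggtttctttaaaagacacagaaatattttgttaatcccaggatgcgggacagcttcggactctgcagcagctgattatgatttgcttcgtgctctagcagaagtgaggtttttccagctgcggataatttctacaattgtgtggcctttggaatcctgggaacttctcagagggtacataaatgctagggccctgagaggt
Blm: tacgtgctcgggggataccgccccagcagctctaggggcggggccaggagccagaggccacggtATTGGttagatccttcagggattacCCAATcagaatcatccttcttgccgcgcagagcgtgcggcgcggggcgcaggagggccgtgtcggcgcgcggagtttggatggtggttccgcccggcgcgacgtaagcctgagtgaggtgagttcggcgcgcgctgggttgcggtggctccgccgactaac
Rad51b: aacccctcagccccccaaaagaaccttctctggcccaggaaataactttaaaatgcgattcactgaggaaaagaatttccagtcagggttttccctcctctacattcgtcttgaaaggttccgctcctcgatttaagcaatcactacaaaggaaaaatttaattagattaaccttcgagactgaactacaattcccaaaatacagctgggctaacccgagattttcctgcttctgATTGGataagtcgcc
Mdm2: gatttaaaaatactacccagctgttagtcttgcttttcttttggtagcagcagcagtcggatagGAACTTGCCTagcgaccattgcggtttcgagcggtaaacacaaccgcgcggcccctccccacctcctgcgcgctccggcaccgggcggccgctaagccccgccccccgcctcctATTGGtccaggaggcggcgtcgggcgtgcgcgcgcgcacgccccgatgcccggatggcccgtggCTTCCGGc
The Mdm4 stretch held no match, Blm held the CCAAT letters on each strand, and Rad51b held them on the opposite strand. Mdm2 held a match to the p53 half-site consensus, the CCAAT letters and the ETS letters CCGGAAG, the last 2 on the opposite strand. RefSeq promoters were matched for 38 of the 46 members. The p53 half-site was found in 10.5% of these and in 7.17% of all 27018 promoters, in Fanca, Fancg, Mdm2 and Trp53, of which 2 rose and 2 fell. The E2F letters TTCCCGC, of a family that drives S phase genes, were found in 15.8% of member promoters against 3.85% of all, and of those 6 members 2 rose, 2 fell and 2 were not called. The CCAAT letters were in 50% of member promoters against 34.5%, and the ETS letters in 15.8% against 7.07%. The E box CACGTG was in 10.5% against 6.04%, and the NRF1 consensus, the CRE letters TGACGTCA and the CHR letters TTTGAA were each in 2.63%, against 0.777%, 1.60% and 16.3%. Such matches describe letters in a window and are not binding sites.

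Among damage signalling genes the negative regulators of p53 rose while Trp53 itself fell slightly. Mdm4 (gene ID 17248, chromosome 1 from 132986105 to 133030587), which encodes a p53-binding inhibitor, had 8559, 8712 and 9184 reads in mLN and 4746, 4527 and 4576 reads in uLN. Every mLN library lay far above every uLN library. The mean was 493 ± 30.3 CPM in mLN and 263 ± 8.31 CPM in uLN (SD, n = 3 each), a 1.87-fold rise with an adjusted p of 1.99e-07 in edgeR's quasi-likelihood test. Mdm2 (chromosome 10 from 117688875 to 117710758), the ubiquitin ligase that sends p53 for degradation, had 3085, 3149 and 3927 reads in mLN and 2140, 2345 and 2298 in uLN. The groups did not overlap, mLN replicate 3 was the highest, and the fold was 1.47 (log2 0.56 ± 0.10 SE). Trp53, which encodes p53, had 1695, 1680 and 1696 reads in mLN and 2030, 2069 and 1866 in uLN, a log2 change of -0.26 ± 0.05 (SE) with no overlap (adjusted p = 0.00091 in edgeR's test).

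The other 5 damage signalling genes changed by less than Mdm4 and Mdm2 or were not called. Atr, the kinase for single-stranded DNA at stalled forks, had 780, 823 and 819 reads in mLN and 597, 598 and 577 in uLN, a 1.34-fold rise. Trp53bp1, which marks breaks for end joining, and Chek2, the kinase downstream of ATM, rose 1.21-fold and 1.18-fold. Atm, the kinase for double-strand breaks, had levels of 84.0 ± 3.42 CPM in mLN and 86.8 ± 2.14 CPM in uLN (SD, n = 3 each), a log2 difference of -0.05 ± 0.05 (SE) that was not called. Chek1, the kinase downstream of ATR, had few reads, with 14, 19 and 8 reads in mLN and 19, 14 and 10 reads in uLN. In all, 5 of the 8 genes of this group rose, 1 fell and 2 were not called. Over all tested genes, 33.2% rose and 34.2% fell.

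**Figure D2:**
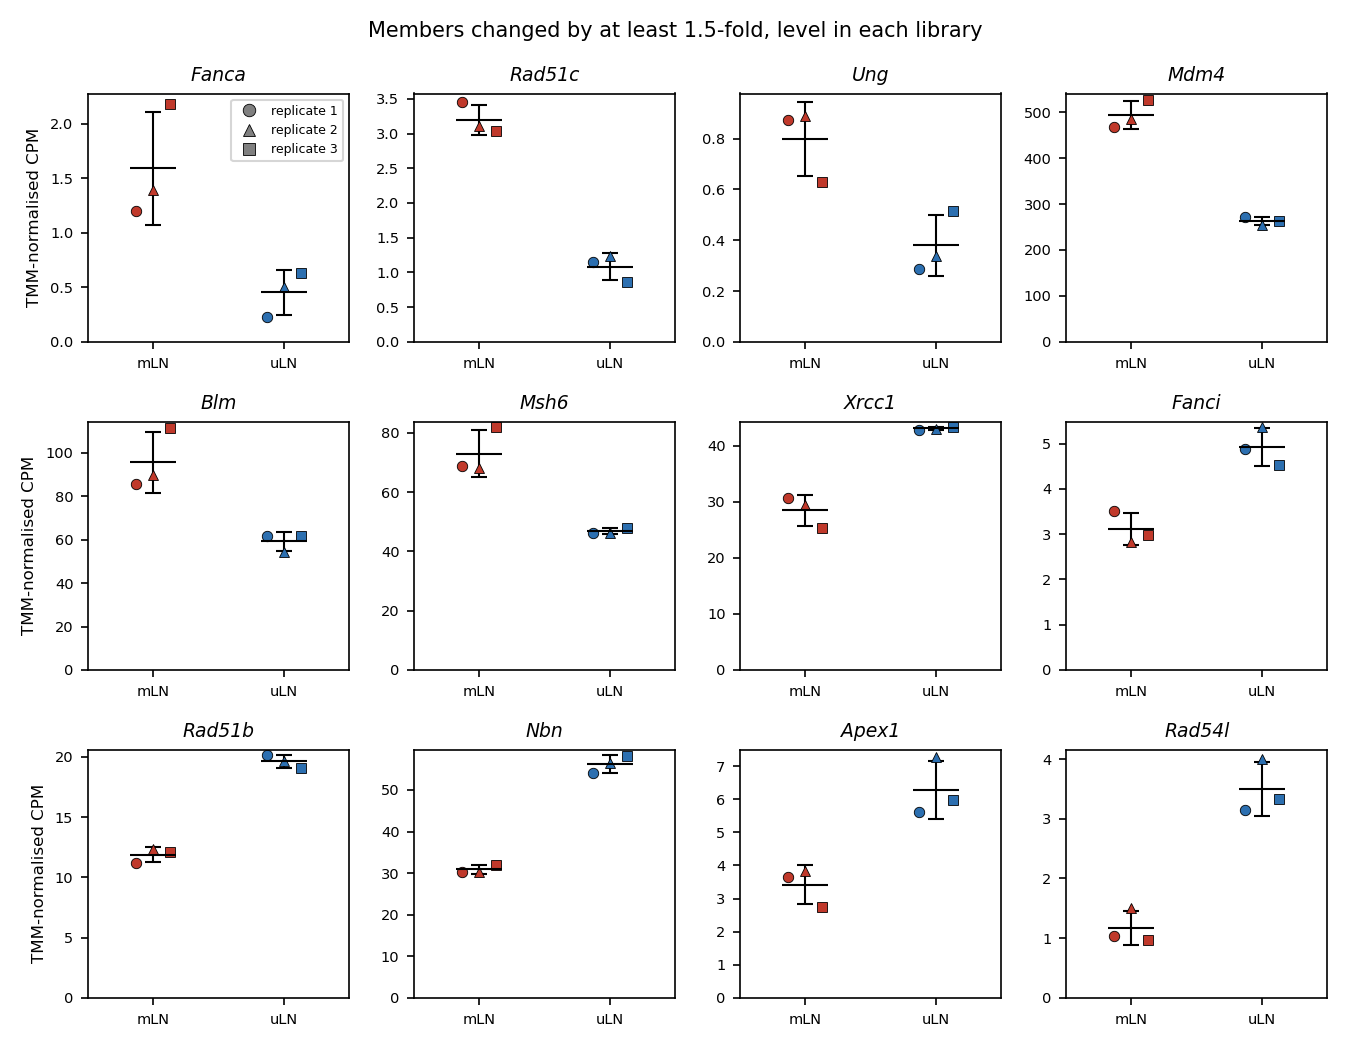
Level in each library (TMM-normalised CPM, linear axes from 0) of the 12 members changed by at least 1.5-fold, with mLN in red, uLN in blue, a symbol for each replicate, and the mean and SD as bars. In all 12 the mLN and uLN libraries do not overlap, but they were chosen by call and fold in these same libraries. Of all tested genes 72.9% do not overlap. Fanca, Ung, Rad51c and Rad54l are the members of lowest level among the 12.

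Homologous recombination genes went both ways, with 4 of 13 rising, 4 falling and 5 not called. That is 61.5% called, close to the 67.4% of all tested genes. Nbn (chromosome 4 from 15957587 to 15992589), the subunit of the MRE11-RAD50-NBN break sensor that recruits ATM, had 555, 545 and 559 reads in mLN and 942, 1003 and 1012 in uLN. Its 3 mLN libraries were nearly alike and all lay below uLN, a 1.82-fold fall (30.9 ± 1.01 CPM in mLN and 56.2 ± 2.09 CPM in uLN, SD, n = 3 each, adjusted p = 5.03e-07 in edgeR's test). Its partner subunits gave other results. Rad50, the ATPase of that complex, was not called (log2 -0.16 ± 0.07 SE, adjusted p = 0.0545 in edgeR's test), and without mLN replicate 3 its log2 change was -0.23 with an adjusted p of 0.000258. Mre11a, the nuclease, had 716, 803 and 876 reads in mLN and 664, 610 and 717 in uLN, a 1.18-fold rise whose groups overlapped. That call was lost without mLN replicates 2 or 3 and without uLN replicates 1 or 2 (adjusted p from 0.0835 to 0.177 in the same test).

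Rad51b and Rad51c moved in opposite directions. Rad51b (chromosome 12 from 79297282 to 79848260), a subunit of a complex that aids strand exchange, had 204, 223 and 211 reads in mLN and 352, 348 and 333 in uLN, a 1.65-fold fall (log2 -0.72 ± 0.08 SE). Rad51c (chromosome 11 from 87376645 to 87404954), a partner of RAD51B in that complex, had 63, 56 and 53 reads in mLN and 20, 22 and 15 in uLN, a 2.94-fold rise (log2 1.56 ± 0.23 SE). Its level stayed low, at 3.20 ± 0.217 CPM in mLN and 1.08 ± 0.197 CPM in uLN (SD, n = 3 each). Rad52, which helps pair single strands, fell 1.37-fold with no overlap between the groups. Rad54l (chromosome 4 from 116094261 to 116123700), a motor protein of strand exchange, had 19, 27 and 17 reads in mLN and 55, 71 and 58 in uLN, a 2.97-fold fall (log2 -1.57 ± 0.24 SE). Of its exon bases, 15.4% lie opposite exons of Lrrc41, which rose by 0.52 on the log2 scale.

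Blm and Wrn, RecQ helicases that unwind recombination intermediates, both rose. The other genes of that family in the table, Recql, Recql4 and Recql5, named after their values were seen, had log2 changes of -0.35, -0.97 and -0.37 and were called lower. Blm (chromosome 7 from 80454993 to 80535148) had 1564, 1615 and 1946 reads in mLN and 1081, 961 and 1074 in uLN, a 1.61-fold rise that came to 1.48-fold without mLN replicate 3, its highest library. Wrn rose 1.24-fold, with 86.4 ± 6.28 CPM in mLN and 69.7 ± 1.11 CPM in uLN (SD, n = 3 each). The BRCA genes, which act in recombination in S and G2 phase, had low levels. Brca1 had 29, 23 and 13 reads in mLN and 32, 35 and 32 in uLN, so every mLN library lay below every uLN library, but the change was not called (log2 -0.64 ± 0.29 SE, adjusted p = 0.0753 in edgeR's test). Without mLN replicate 1 the log2 change of Brca1 was -0.89 with an adjusted p of 0.0314. Brca2, its partner Palb2 and the BRCA1 partner Bard1 were not called, at means of 3.0 to 8.23 CPM in either group.

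In the Fanconi anaemia pathway, which repairs DNA crosslinks, 1 of 5 genes rose and 2 fell. That is 60% called, where 67.4% of all tested genes were. Fanca (chromosome 8 from 123266294 to 123318651), a core complex subunit, had 22, 25 and 38 reads in mLN and 4, 9 and 11 in uLN. The groups did not overlap, and the 3.44-fold rise rests on few reads, with a log2 standard error of 0.40. Fancg, another core subunit with far more reads, had 480, 499 and 385 in mLN and 572, 605 and 638 in uLN, a 1.36-fold fall. Fanci (chromosome 7 from 79392312 to 79450266), which is ubiquitinated with FANCD2 at a crosslink, had 64, 51 and 52 reads in mLN and 85, 95 and 79 in uLN, a 1.58-fold fall. Exons of Polg lie opposite 16.0% of Fanci exon bases, and Polg fell by 0.81 on the log2 scale. Zfp276 lies opposite 10.5% of Fanca and moved the other way, with a log2 change of -0.80. Fancd2 had 10, 8 and 9 reads in mLN and 10, 12 and 12 in uLN and was not called, a difference not detectable at this depth. Fancc, a core subunit, had 281, 260 and 287 reads in mLN and 217, 236 and 250 in uLN, with no overlap and no call (log2 0.21 ± 0.09 SE, adjusted p = 0.0601 in edgeR's test).

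The mismatch readers of mismatch repair moved apart. Msh6 (chromosome 17 from 87975050 to 87990892), which reads single-base mismatches, had 1256, 1227 and 1429 reads in mLN and 807, 821 and 835 in uLN. All mLN libraries stood above uLN, replicate 3 highest, for a 1.56-fold rise that was 1.47-fold without that replicate. Msh3, which reads larger loops, had 195, 211 and 207 reads in mLN and 231, 228 and 263 in uLN. Its fall, by 0.27 on the log2 scale (adjusted p = 0.0302 in edgeR's test), was not called without mLN replicate 1 (adjusted p = 0.118) or uLN replicate 3 (adjusted p = 0.123), nor in DESeq2 (adjusted p = 0.135). Pms2, which nicks the strand to be corrected, had 409, 426 and 450 reads in mLN and 441, 458 and 466 in uLN. It was not called (log2 -0.12 ± 0.07 SE), and without mLN replicate 3 it was, at -0.17 with an adjusted p of 0.0298 in edgeR's test.

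Nucleotide excision repair genes fell by small amounts or were not called. Ercc3 and Ercc2, the helicases of transcription factor TFIIH, fell by 0.43 and 0.26 on the log2 scale. Ercc3 had 705, 738 and 663 reads in mLN and 882, 943 and 960 in uLN, and Ercc2 had 683, 659 and 611 in mLN and 769, 763 and 760 in uLN. Exons of Klc3, with 16, 4 and 8 reads in mLN and 6, 5 and 7 in uLN, lie opposite 17.8% of Ercc2 exon bases. Xpc, which finds distorted DNA across the genome, had 2042, 1905 and 1929 reads in mLN and 2408, 2230 and 2225 in uLN, a 1.19-fold fall. These 3 of the 5 genes fell, or 60% called, where 67.4% of all tested genes were called and 34.2% fell. For all 3 the groups did not overlap, which also held for 72.9% of all tested genes. Xpa, which checks the damage, had 314, 289 and 331 reads in mLN and 264, 285 and 299 in uLN and was not called (log2 0.11 ± 0.09 SE). Ercc1, part of the nuclease that cuts 5′ of the damage, was not called either (log2 -0.07 ± 0.10 SE).

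In base excision and single-strand break repair the scaffold Xrcc1 fell, and its enzyme partners were not called. Xrcc1 (chromosome 7 from 24546699 to 24573438), which gathers the ligase and polymerase at a nick, had 560, 530 and 443 reads in mLN and 749, 763 and 757 in uLN. The uLN libraries were nearly equal and all lay above mLN, a 1.51-fold fall (28.5 ± 2.74 CPM in mLN and 43.1 ± 0.292 CPM in uLN, SD, n = 3 each, adjusted p = 4.07e-05 in edgeR's test) that was 1.43-fold without mLN replicate 3. The partners had log2 changes of -0.10 ± 0.05 for the ligase Lig3, 0.01 ± 0.08 for the polymerase Polb and 0.05 ± 0.05 for the break sensor Parp1 (SE). Lig3 had 1242, 1304 and 1249 reads in mLN and 1365, 1261 and 1352 in uLN, and the groups overlapped. Exons of Rffl, which was not called (log2 -0.08), lie opposite 25.1% of Lig3 exon bases.

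The glycosylases and the endonuclease that start base excision were less certain. Apex1 (chromosome 14 from 50924949 to 50927188), which cuts at a lost base, had 67, 69 and 48 reads in mLN and 98, 129 and 104 in uLN, a 1.84-fold fall (log2 -0.88 ± 0.18 SE). Of its exon bases 61.7% lie opposite exons of Pip4p1, which fell by 0.44 on the log2 scale, and reads of the pair cannot be told apart if strand was not used in counting. Ung (chromosome 5 from 114130366 to 114139321), which removes uracil, had 16, 16 and 11 reads in mLN and 5, 6 and 9 in uLN. Its 2.08-fold rise (adjusted p = 0.0290 in edgeR's test) lost its call without mLN replicates 1 or 2 or uLN replicates 1 or 2 (adjusted p from 0.0843 to 0.109), in DESeq2 (adjusted p = 0.167) and when low genes were kept (0.072). Ogg1, which removes oxidised guanine, was at 17.4 ± 1.45 CPM in mLN and 17.1 ± 1.34 CPM in uLN (SD, n = 3 each) and was not called, although Camk1, opposite 10.6% of its exon bases, fell by 0.80 on the log2 scale.

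The Ku subunits of end joining moved in opposite directions. Xrcc6, which encodes Ku70, had 459, 470 and 476 reads in mLN and 349, 331 and 336 in uLN, a 1.36-fold rise with no overlap. Xrcc5, which encodes Ku80, had 243, 271 and 219 reads in mLN and 291, 292 and 286 in uLN. Its 1.21-fold fall (adjusted p = 0.0152 in edgeR's test) missed the threshold without mLN replicate 1 (adjusted p = 0.0569) and in DESeq2 (adjusted p = 0.0818). Prkdc, the catalytic subunit that binds Ku at a break, had 796, 839 and 809 reads in mLN and 1074, 1116 and 1025 in uLN, a 1.34-fold fall. Lig4, the ligase of this pathway, had 143, 151 and 147 reads in mLN and 112, 136 and 123 in uLN. Its groups did not overlap, but it was not called (log2 0.22 ± 0.12 SE). Mgmt, which reverses guanine methylation directly, had 93, 112 and 82 reads in mLN and 59, 70 and 75 in uLN, a 1.38-fold rise (adjusted p = 0.0345 in edgeR's test). That call was lost without mLN replicate 2 or any 1 uLN library (adjusted p from 0.0508 to 0.139) and in DESeq2 (adjusted p = 0.0984).

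**Figure D3:**
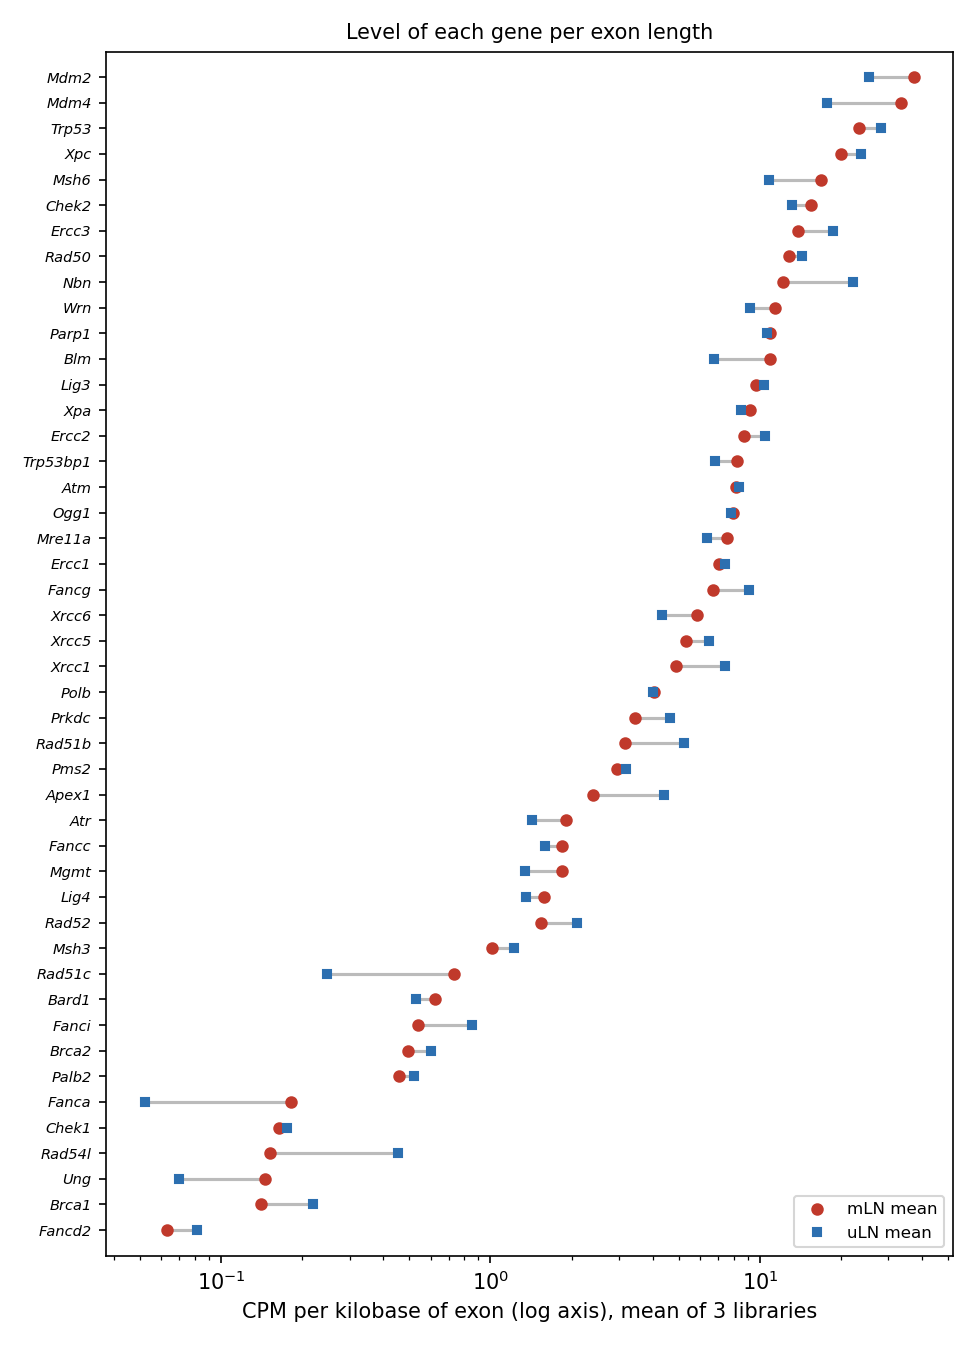
Mean level per exon length (CPM per kilobase of exon, log axis) of each member in mLN (red circles) and uLN (blue squares), ordered by the mLN level. Mdm2, Mdm4, Trp53 and Xpc head the list in mLN, and Fancd2 is lowest there at 0.0633.

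Levels per exon length differed far more between members than between groups. The level was CPM per kilobase of all annotated exon bases of a gene, which understates a gene whose long isoforms are not used. In mLN the highest were Mdm2 at 37.3, Mdm4 at 33.3, Trp53 at 23.4 and Xpc at 19.9 CPM per kilobase. In uLN they were Trp53 at 28.0, Mdm2 at 25.4, Xpc at 23.8 and Nbn at 22.2, while Mdm4 was at 17.8. On this scale Trp53 headed the order in uLN and stood behind both of its inhibitors in mLN. That change of order depends on the exon lengths. In CPM, Trp53 was below both in uLN as well, at 113 against 129 for Mdm2 and 263 for Mdm4. The median member stood at 5.11 CPM per kilobase in mLN and 5.81 in uLN, and 11 members were under 1 in each group. These were Brca1, Brca2, Bard1, Palb2, Chek1, Fancd2, Fanci, Rad54l, Rad51c, Fanca and Ung.

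Replicates were close. The median coefficient of variation of a member was 7.80% in mLN and 5.11% in uLN. Of the mLN libraries, replicate 3 was highest for 22 members, Mdm2, Blm, Msh6 and Fanca among them, and lowest for 16. With 3 libraries in a group, any library stands at an end for many members. In its group uLN replicate 1 was highest for 14 and lowest for 21, and mLN replicate 1 for 9 and 18. The authors' counting gave fractions for 24 members in at least 1 library, as occurs where a read is shared between genes or transcripts.

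Repair genes outside the set gave a similar picture. Of 121 tested, 31 rose and 46 fell, or 63.6% called, where 67.4% of all tested genes were (33.2% higher and 34.2% lower). Among checkpoint genes 3 of 19 rose and 6 fell. The clamp loader Rfc2 and the ATR activator Topbp1 had log2 changes of -0.57 and -0.52, and Rif1, a 53BP1 partner, of 0.68. Among other recombination genes 5 of 22 rose and 9 fell, and Slx1b, a structure-specific nuclease, Bod1l and Swi5 had log2 rises of 0.79, 0.60 and 0.56. Of changes of at least 1.5-fold there, 2 were higher and 5 lower, and the lowest value, named after it was seen, was -1.10 for Swsap1. Among other Fanconi genes 4 of 14 rose and 7 fell, with Fancb and Fancl, of the ubiquitin ligase module, at -1.84 and -1.0 and the deubiquitinase Usp1 at -0.49. Fancb had 87, 99 and 76 reads in mLN and 320, 291 and 308 in uLN.

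In mismatch repair 2 of 7 further genes rose and 4 fell, where 33.2% of all tested genes rose and 34.2% fell. The sliding clamp Pcna had a log2 change of -0.89 and Mlh3 of -0.35. In nucleotide excision repair 7 of 20 rose and 10 fell. The ligase Lig1 had 652, 640 and 670 reads in mLN and 234, 211 and 252 in uLN (log2 1.46 ± 0.08 SE), and the transcription-coupled repair factor Ercc6 rose by 0.94, while the TFIIH subunit Gtf2h1 had a log2 change of -0.51. In base excision repair 3 of 19 rose and 7 fell, with Hmgb1, a chromatin protein, at -0.90, the thymine glycosylase Tdg at -0.69 and Nudt1, which clears oxidised nucleotides, at -1.71.

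In end joining 1 of 10 further genes rose and 3 fell, or 40% called, where 67.4% of all tested genes were. Mad2l2, a shieldin and polymerase zeta subunit, rose by 0.96, and the polymerase Polm had a log2 change of -1.60. Nhej1, which bridges DNA ends, had 4, 4 and 2 reads in mLN and 27, 32 and 24 in uLN. Direct reversal and translesion synthesis, which copies past damage that is left in place, had the highest share of rises of these 8 lists. Of its 10 genes 6 rose and the other 4 were not called, where 33.2% of all tested genes rose. The translesion polymerase Polk had 1194, 1171 and 1600 reads in mLN and 409, 441 and 412 in uLN (log2 1.63 ± 0.13 SE). The polymerase Poli had 1154, 1116 and 1103 reads in mLN and 633, 620 and 625 in uLN (log2 0.81 ± 0.05 SE), and Shprh, a ubiquitin ligase for PCNA, rose by 0.74. Lists this short were described by their counts only.

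**Figure D4:**
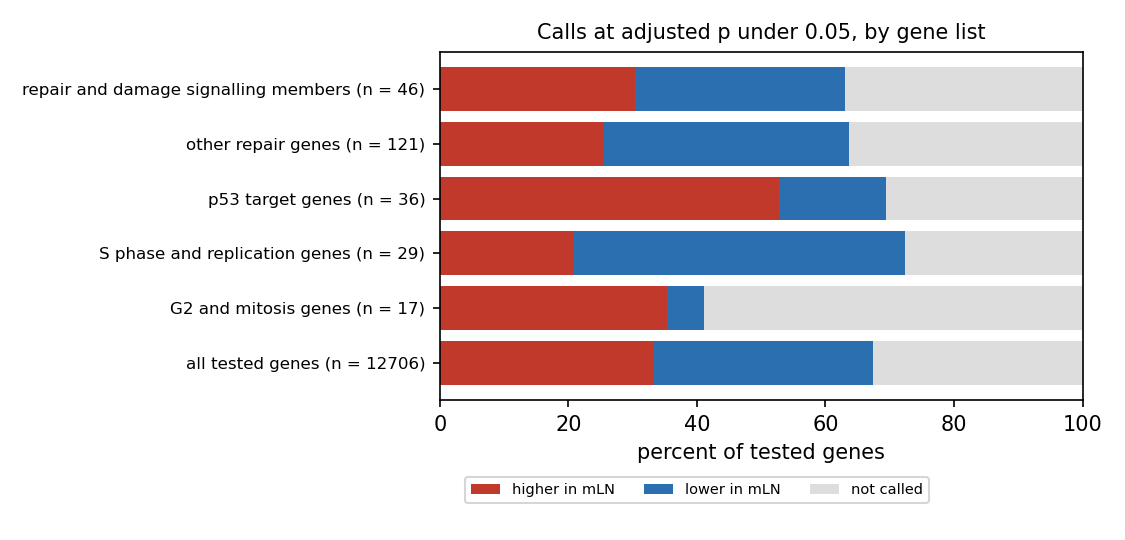
Share of tested genes (percent, x axis) that were higher in mLN, lower in mLN or not called at an adjusted p under 0.05, for the members, 4 other gene lists and all tested genes. The members resemble all tested genes, and 52.8% of the p53 target genes were higher.

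Target genes of p53 rose more often than they fell. Of 36 tested, 19 rose (52.8%) and 6 fell (16.7%), with a median log2 change of 0.25, where 33.2% of all tested genes rose and 34.2% fell and the median was -0.01. Psrc1, a spindle protein gene, had 1088, 1075 and 1432 reads in mLN and 211, 236 and 201 in uLN (log2 2.45 ± 0.13 SE, adjusted p = 1.30e-07 in edgeR's test). Ptp4a3, a phosphatase gene, rose by 1.09 and Btg2, an antiproliferative gene, had 935, 1162 and 869 reads in mLN and 2766, 3069 and 3878 in uLN (log2 -1.74). Other targets named here were picked after their values were seen. The cell cycle inhibitor Cdkn1a had 7515, 7574 and 8497 reads in mLN and 4644, 5340 and 5643 in uLN (log2 0.57 ± 0.08 SE). Of the death genes, Pmaip1 and Fas rose by 1.37 and 1.21, while Bbc3 and Bax had log2 changes of -0.55 and -0.30. Zmat3, which regulates splicing, and Eda2r, a TNF receptor family gene, rose by 1.35 and 1.79, and Ccng1 and Gadd45a were not called (0.09 and 0.03). Mdm2, itself a target, is counted with the members, and Polk, Ddb2, Ercc5 and Ppm1d stand in a repair list as well. Without mLN replicate 3, 20 targets rose and 6 fell, where 4403 of all 12885 genes tested then rose and 4492 fell. Without mLN replicate 1, 17 targets rose and 6 fell, where 4012 of all 12826 genes tested then rose and 4158 fell.

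**Figure D5:**
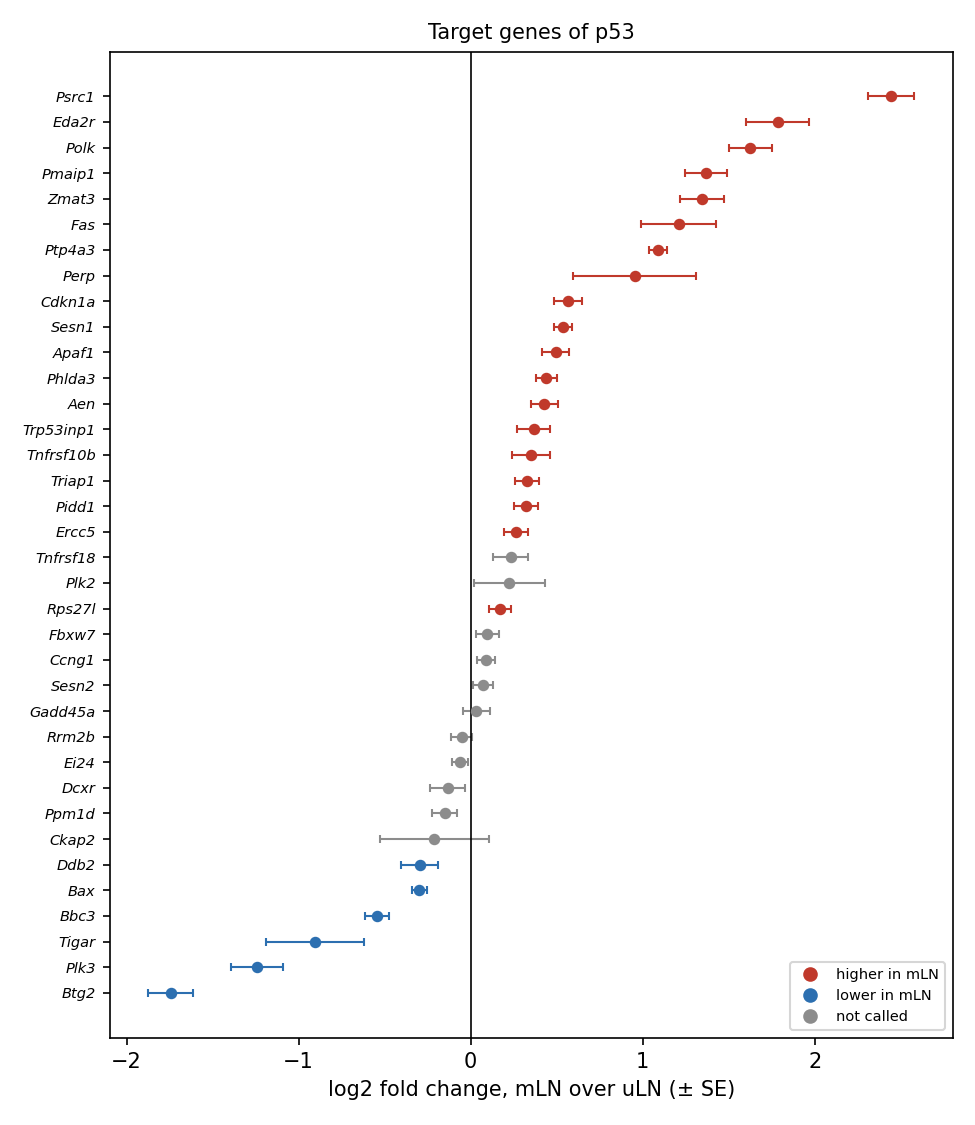
Log2 fold change (mLN over uLN, x axis) with its standard error for the 36 p53 target genes tested, coloured by the call at an adjusted p under 0.05. Genes run from Psrc1 at 2.45 to Btg2 at -1.74, with 19 called higher and 6 called lower.

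Many repair genes are known to be switched on in dividing cells, so genes of S phase and mitosis were set beside them. Of 29 tested S phase genes 6 rose and 15 fell, where 33.2% of all tested genes rose and 34.2% fell. Mcm5, a subunit of the replicative helicase, had 47, 50 and 28 reads in mLN and 224, 214 and 181 in uLN, and the repressor E2f8 had a log2 change of -1.05. Rrm2, the regulatory subunit of ribonucleotide reductase, had 63, 78 and 94 reads in mLN and 9, 7 and 11 in uLN. Of 17 tested mitosis genes 6 rose and 1, Cenpe, fell. The share that rose was close to the share over all tested genes, and the share that fell was below it. All 6 that rose changed by at least 1.5-fold, where 17.1% of all tested genes rose by that much. Top2a rose by 1.72 on the log2 scale, Nusap1 by 2.50 and Bub1b by 1.65. Mki67, the usual marker of dividing cells, named after its value was seen, had 103, 116 and 120 reads in mLN and 86, 92 and 95 in uLN and was not called (log2 0.28 ± 0.14 SE). The part of cell division in the values of the repair genes was not tested.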

How the data were processed

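For 6 libraries the authors deposited unscaled estimated counts, 1 value a gene. Per the labels' protocols, RNA was extracted with a Qiagen kit and made into BGI DNBSEQ mRNA libraries. The tools listed per the submitters' processing notes are TopHat, cutadapt and FastQC, on build GRCm38. No source used here names the counting tool or its use of strand. Between 32.2% and 32.8% of a library's values were not whole (tolerance 0.001), so they were rounded. Of 17891 rows, 1 named no gene and was left out.

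edgeR 4.0.16 in R 4.3.3 fitted mLN against uLN on the whole table (quasi-likelihood, TMM, default filter, 12706 genes kept), with Benjamini-Hochberg adjustment and a call at 0.05. A log2 standard error is the change over the square root of F. The procedure was tested on simulated data. Coordinates come from RefSeq GRCm38.p6 (17764 gene IDs matched), promoters from RefSeq, and exon lengths and overlaps from GENCODE M21. Of 329 list entries 323 were found. Members, lists and tests were chosen with earlier results of these data known. Values per library were given for members changed by at least 1.5-fold and, in each pathway, for the lowest adjusted p up to 4, with Chek1, Brca1, Mre11a and Fancd2 added after their values were seen, and up to 3 genes were named per other list, 1 of them not reported here. Alternatives were other scaling, filters, DESeq2 1.42.0, glmTreat at 1.2-fold, a replicate block and leaving out each library. At these totals, 3 reads equal 0.164 to 0.172 CPM, a floor that covers counting error only.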

Additional observations from a re-analysis of the deposited data

How the results depend on the processing

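No called member changed direction under any of the 13 alternatives that tested it (Ung was not tested with the stricter filter), and no alternative that left out 1 library moved a called fold by over 1.5 times. With glmTreat against a 1.2-fold change, 8 members, 19 other repair genes and 12 p53 targets were higher and 9 S phase genes lower, and 11 members lost their call. Of all 12706 genes tested that way, 2932 were higher and 2924 lower. Without an expression filter Ogg1 and Polb, not called, had log2 changes of -0.0014 and -0.018. Leaving out each library gave from -0.41 to 0.16 for Chek1, -0.14 to 0.031 for Ercc1, -0.043 to 0.10 for Ogg1 and -0.051 to 0.052 for Polb, none of them called. The count of lower mitosis genes ran from 0 to 1 when each library was left out. In edgeR it was 0 without uLN replicate 1 (1 at an unadjusted p under 0.05) and 0 with the stricter filter of 1 CPM in 3 libraries, which removed Cenpe (0 unadjusted), and in DESeq2 it was 0 (0 unadjusted). Fancc was called with RLE factors (adjusted p = 0.0493 in edgeR) and with library totals alone (0.0369). In DESeq2, 11 members rose and 13 fell, where 4006 of all 15420 genes tested there rose and 3931 fell. The labels used here do not say whether same-numbered libraries were paired. Deviations of same-numbered libraries correlated at 0.0248, -0.155 and -0.0133, and those of other pairs from -0.16 to 0.185, which cannot settle it. With the replicate block 13 members rose and 15 fell, and the call of Ung was lost (adjusted p = 0.0631 in edgeR). Of all 12706 genes tested with that block, 4122 rose and 4263 fell. Chek1, Fancd2, Ung and Fanca have few reads and are limited by depth.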
